A study of Clytia hemisphaerica and Astroides calycularis and Pocillopora acuta with 17 samples.

Results

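Planula larvae of the hydrozoan jellyfish Clytia hemisphaerica were compared at 66 h and at 52 h post fertilization (hpf) by single-cell RNA sequencing of whole dissociated larvae. Barcodes were kept when they held 300 to 75000 unique molecular identifiers (UMIs, counted RNA molecules), 200 to 5000 detected genes and at most 20% mitochondrial UMIs. The rule kept 8154 of the 11309 barcodes deposited for these 4 libraries, out of 50609 barcodes in the 12 matrices of the whole series, which also holds other preparations and coral larvae. The 66 hpf larvae gave 5446 kept cells and the 52 hpf larvae gave 2708. Larvae of both ages were untreated laboratory-strain planulae from separate fertilizations of the same batch of jellyfish, dissociated, fixed and cryopreserved in the same way. Each age was a single dissociation of many pooled larvae that was then split into 2 technical replicate libraries, so age, fertilization and dissociation cannot be told apart. No test between ages is possible with 1 biological sample per age, and every interval given below is a 95% interval of counting error only.

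The planula is the ciliated, free-swimming larva of cnidarians. It swims with its aboral end in front and attaches by that end when it settles and turns into a polyp. The aboral end of Clytia planulae holds sensory neurons that make GLWamide peptides, which trigger settlement, and secretory cells of the epidermis. Interstitial stem cells (i-cells) are the multipotent, dividing cells of hydrozoans and give rise to neurons, stinging cells and gland cells. Gene models carry the identifiers of the study's annotation (XLOC and MSTRG numbers), and gene names are those the study gave them. Genome positions and sequences of these models were not analysed here.

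Kept cells of the 66 hpf libraries summed to 10610846 and 10161149 UMIs, with a median of 1471 and 1377 UMIs per cell, and those of the 52 hpf libraries to 6827972 and 6096701 UMIs, with a median of 1592 and 1633. After thinning every cell to 500 UMIs the median number of detected genes was 276 and 280 at 66 hpf and 275 and 275 at 52 hpf. The median mitochondrial share was 2.46% and 2.82% at 66 hpf, against 1.90% and 2.18% at 52 hpf, and the part of this difference in the results was not tested. Both 66 hpf libraries shared 4 kept barcodes and no other pair shared any. The technical pairs differed by more than sampling noise, with a chi-square per degree of freedom over genes of 7.32 at 66 hpf and 5.40 at 52 hpf, against 23.4 to 28.5 for pairs of different age. Empty droplets were not analysed here, and the part of free RNA in any difference was not tested.

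Levels were compared as CPM, the UMIs of a gene scaled to a common library total, summed over all kept cells of an age, for 12097 genes with at least 50 UMIs over the 4 libraries. A gene was called higher or lower when its pooled fold was at least 2 and the technical replicates of the ages did not overlap. By this rule 955 genes (7.89%) were higher and 63 (0.521%) were lower at 66 hpf. Between the technical replicates of 1 age, 0.562% to 2.76% of genes were at least 2-fold apart in a given direction. That range compares single libraries and has no condition on overlap, so it is not on the scale of the calls. Single libraries of different age, compared by replicate number, had 7.9% and 11.7% of genes at least 2-fold higher at 66 hpf and 1.35% and 0.909% lower. In this comparison the shares lower were within the technical range. Most calls concerned weakly expressed genes, since 638 of the 955 stayed under 10 CPM at the higher age. Among the 1028 genes of 100 CPM or more, 56 (5.45%) were higher and 4 (0.389%) were lower. CPM values are relative to all RNA of a library, and the median log2 fold was 0.15 over all evaluated genes and -0.15 over those of 100 CPM or more. Scaling by TMM moved the median over all genes to 0.04.

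The genes with the greatest folds among those of 100 CPM or more fell into 4 sets by the cell cluster in which they were highest. Cells were grouped into 25 clusters by their variable genes, numbered from 0 by size. Cluster 21, led by the gene XLOC_041232, held a first set. XLOC_005440, a gene named ALK-like with an F5/8 type C domain, had 766 and 935 CPM at 66 hpf, against 128 and 161 CPM at 52 hpf, a 5.91-fold higher level (5.64 to 6.21). XLOC_000115 had 1607 and 1956 CPM at 66 hpf, against 265 and 367 CPM at 52 hpf (5.67-fold). MSTRG.7476, named FKB14-like and carrying EF-hand domains that bind calcium, had 777 and 852 CPM at 66 hpf, against 145 and 179 CPM at 52 hpf (5.05-fold). XLOC_041232 itself had 869 and 1009 CPM at 66 hpf, against 172 and 249 CPM at 52 hpf (4.50-fold). In all 4 genes the lower 66 hpf library was more than 3 times the higher 52 hpf library. All 7 mucous markers were raised at least 4-fold in cluster 21 and 2 of them were among its 10 leading genes. Because 3 aboral epidermis markers were also among these, the naming rule left the cluster unnamed. Of the 20 aboral epidermis markers only 4 were raised there, as were 4 of 6 Nk2d markers. The median fold over other cells was 53.3 for the mucous list, 1.24 for the aboral epidermis list and 5.12 for the Nk2d list.

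Cluster 23 was led by MSTRG.461 and held cells with much RNA, a median of 17039 UMIs per cell at 66 hpf and 6092 at 52 hpf. Its leading genes were among the most abundant of the whole larva and all of those listed here were called higher at 66 hpf. The C-type lectin gene XLOC_006762, of a family of carbohydrate-binding proteins, had 7772 and 6580 CPM at 66 hpf, against 1470 and 2367 CPM at 52 hpf (3.80-fold). MSTRG.461 had 4951 and 4089 CPM at 66 hpf, against 632 and 1432 CPM at 52 hpf (4.49-fold, or 7.17-fold without 52 hpf library 2 and 3.16-fold without 52 hpf library 1). XLOC_037406 had 8371 and 4734 CPM at 66 hpf, against 2033 and 2443 CPM at 52 hpf (2.96-fold). MSTRG.17015, with FG-GAP repeats as found in integrin alpha chains, had 3983 and 3106 CPM at 66 hpf, against 824 and 1312 CPM at 52 hpf (3.37-fold). These levels rest on few cells at the younger age. In 66 hpf library 1 the top cell held 7.74% of the UMIs of XLOC_006762 and 8.83% of those of MSTRG.17015, against 55.5% and 63.3% in 52 hpf library 1. Without the top cell of each gene in each library, all 4 genes were still called higher, with folds from 4.90 for XLOC_037406 to 6.16 for MSTRG.461. Where every cell counted equally, as a mean of CPM per cell, the folds of the genes of both sets fell short of the call, from 1.36 for XLOC_041232 to 1.78 for XLOC_000115 in the first and from 1.48 for XLOC_037406 to 1.85 for XLOC_006762 in the second.

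The third set was highest in cluster 6, led by XLOC_036949. XLOC_043846 had the greatest fold of all genes of 100 CPM or more, with 125 and 139.7 CPM at 66 hpf, against 17.1 and 18.5 CPM at 52 hpf (7.43-fold, 6.49 to 8.54). It was also higher within cluster 6, with 1572 and 1599 CPM at 66 hpf, against 487 and 877 CPM at 52 hpf. XLOC_019944 had 182 and 152 CPM at 66 hpf, against 37.2 and 34.8 CPM at 52 hpf (4.64-fold), and XLOC_044369 had 277 and 311 CPM at 66 hpf, against 91.1 and 71.2 CPM at 52 hpf (3.59-fold). The fourth set was highest in cluster 5, led by XLOC_003106. MSTRG.19409 had 241 and 294 CPM at 66 hpf, against 56.8 and 46.3 CPM at 52 hpf (5.15-fold), and XLOC_030379 had 118 and 150.0 CPM at 66 hpf, against 29.6 and 27.4 CPM at 52 hpf (4.67-fold). The deposited annotation used here gives neither name nor domain for these 5 genes. In all of them the technical replicates of an age lay close together compared with the distance between ages. They were also called as a mean of CPM per cell, with folds from 2.66 for XLOC_044369 to 7.41 for XLOC_043846.

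The genes called lower at 66 hpf were fewer, and UMIs of 3 of the 4 named here were concentrated in single cells. XLOC_019808, the leading gene of cluster 3, had 217 and 74.2 CPM at 66 hpf, against 994 and 274 CPM at 52 hpf (0.225-fold, 0.216 to 0.234). Its 52 hpf libraries differed nearly as much from each other as the ages did, and a single cell held 30.1% to 54.6% of its UMIs in each library. Without 52 hpf library 1 its fold was 0.537 and it was no longer called, while it was 0.113 without 66 hpf library 1 and 0.148 without 52 hpf library 2. XLOC_016334 had 108 and 70.6 CPM at 66 hpf, against 268 and 162 CPM at 52 hpf (0.411-fold), and without the same library its fold was 0.553. It also lost its call without the top cell of each library, with a fold of 0.508. XLOC_035579 had 39.6 and 34.4 CPM at 66 hpf, against 89.9 and 119.7 CPM at 52 hpf (0.356-fold), with 68.7% of its UMIs in 52 hpf library 1 in 1 cell. Without the top cell of each library its fold was 0.486, its libraries overlapped between ages and it was not called. XLOC_007677 was the most evenly spread of the 4, with 177 and 171 CPM at 66 hpf, against 370 and 344 CPM at 52 hpf (0.488-fold) and at most 2.76% of its UMIs in any cell of a library. Its fold of 0.507 without 52 hpf library 1 was just outside the 2-fold limit, and as a mean of CPM per cell it had 0.590. When the RNA-rich cells of clusters 3, 4 and 7 were left out, an exclusion chosen after the data were seen, 234 genes were called lower in place of 63.

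**Figure D1:**
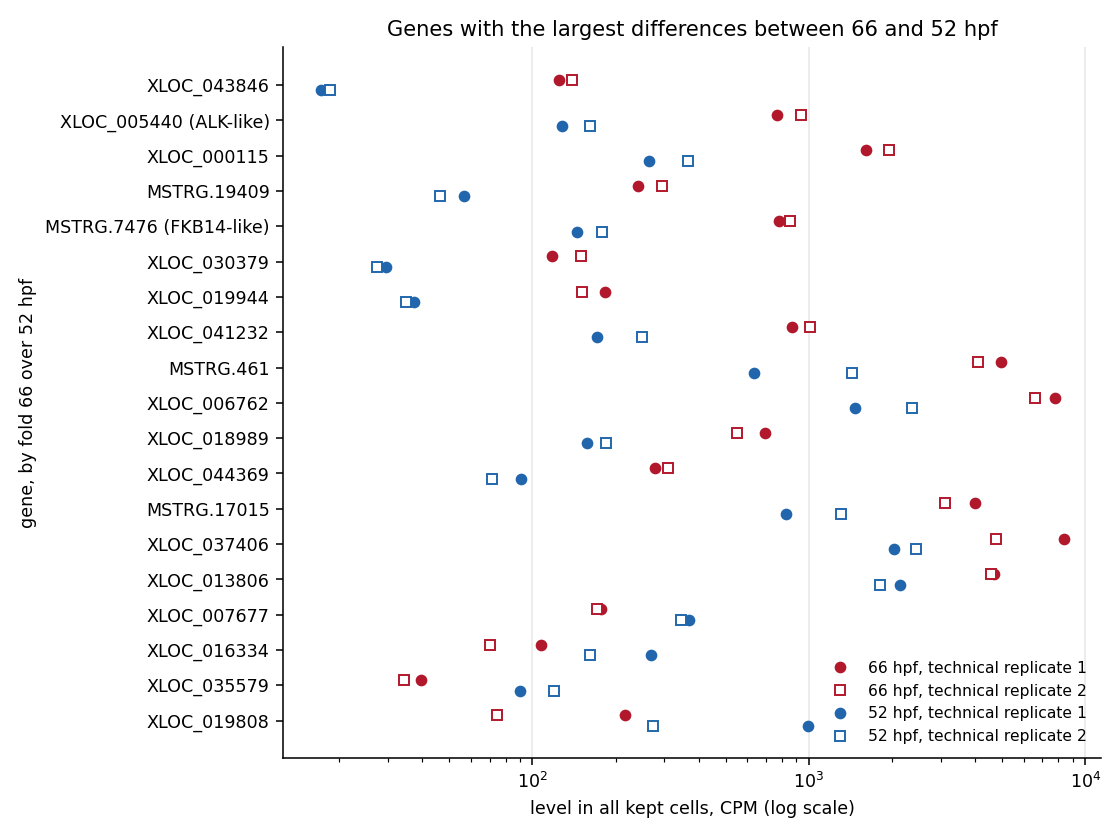
Level of the genes with the largest folds or differences at 66 and 52 hpf, in CPM over all kept cells on a log axis, with 1 point per library (red, 66 hpf; blue, 52 hpf; filled circles, technical replicate 1; open squares, technical replicate 2). The upper 15 genes were higher and the lower 4 were lower at 66 hpf, and XLOC_019808 shows the widest spread between technical replicates.

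Gene lists were described by how many of their members were called, beside the 7.89% and 0.521% of all genes. The mucous cell markers stood highest, with all 6 evaluated members of 7 called higher. Their summed level was 2487 and 3111 CPM at 66 hpf, against 720 and 872 CPM at 52 hpf (3.53-fold, 3.45 to 3.60). MSTRG.6587, named Mucin1, encodes a protein with the C8 and trypsin-inhibitor-like domains of gel-forming mucins and had 918 and 1289 CPM at 66 hpf, against 437 and 516 CPM at 52 hpf (2.32-fold). Without 66 hpf library 2 its fold was 1.93. XLOC_029413, a transcription factor gene named RFX4, had 5.94 and 5.71 CPM at 66 hpf, against 2.64 and 2.95 CPM at 52 hpf (2.09-fold, or 1.97-fold without 52 hpf library 1). XLOC_042365 had 2.36 and 4.82 CPM at 66 hpf, against 0.439 and 0.984 CPM at 52 hpf (5.12-fold, 2.55 to 11.6), and its fold was 8.11 without 52 hpf library 2 and 3.38 without 66 hpf library 2. As a mean of CPM per cell the folds of the 6 genes ran from 0.950 for Mucin1 to 1.61 for XLOC_005440, and 0 of them was called. The study chose these and all other cell type markers on these same cells, so the lists are no independent evidence of a direction.

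Genes of both body ends were more often called higher than lower. The study had ranked genes by bulk sequencing of separated aboral and oral ends of 52 hpf larvae. Of the orally enriched genes, 31 of 98 evaluated were called higher and 0 lower, with a summed level of 36852 and 29372 CPM at 66 hpf, against 12766 and 14316 CPM at 52 hpf (2.46-fold). Of the aborally enriched genes, 71 of 353 were called higher and 1 lower, and their summed level was 36991 and 39414 CPM at 66 hpf, against 33774 and 30302 CPM at 52 hpf (1.19-fold). The 1 called lower was XLOC_020007, named ROMT-like and highest in cluster 24, with a fold of 0.448, or 0.627 without 52 hpf library 2. As a mean of CPM per cell 3 of the 31 oral genes and 40 of the 72 aboral genes were still called. The median log2 fold was 0.57 for the oral and 0.33 for the aboral genes, against 0.15 for all genes. Many of the abundant oral genes were those of cluster 23, XLOC_006762, MSTRG.461 and MSTRG.17015 among them. Of the collagen and laminin genes, 5 of 10 evaluated were called higher and 0 lower. Their summed level was 14491 and 14767 CPM at 66 hpf, against 11546 and 10774 CPM at 52 hpf (1.31-fold), with 84.9% of it in MSTRG.17604, and 1 of the 5 was still called as a mean of CPM per cell. Of the 5, XLOC_001752 and XLOC_004219 were named CNTNAP-like, after a family of neural cell adhesion proteins, and the other 3 were collagen genes of the oral list. XLOC_037910 had 1758 and 1328 CPM at 66 hpf, against 397 and 556 CPM at 52 hpf (3.28-fold), XLOC_037899 was 2.66-fold and XLOC_020578 2.20-fold higher, the last with a fold of 1.78 without 66 hpf library 1 and 1.97 without 52 hpf library 2. Collagens form the fibres of the mesoglea, the extracellular matrix between the cell layers of cnidarians. The astacin metalloprotease gene XLOC_031858 was also oral, with 28.5 and 35.1 CPM at 66 hpf, against 8.49 and 7.71 CPM at 52 hpf (3.91-fold). As a mean of CPM per cell its fold was 1.19 and it was not called.

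Of the aboral patterning genes, 3 of 8 evaluated were called higher and 0 lower. XLOC_014597 encodes FoxQ2a, a forkhead transcription factor of the aboral territory, and had 55.5 and 58.2 CPM at 66 hpf, against 27.97 and 28.7 CPM at 52 hpf (2.01-fold). This fold was at the limit of the call and was 1.85 with TMM scaling, 1.96 without 66 hpf library 2 and 1.98 without 52 hpf library 1. XLOC_039886, a Frizzled receptor gene of the Wnt pathway, had 14.9 and 19.5 CPM at 66 hpf, against 6.15 and 8.04 CPM at 52 hpf (2.43-fold, 1.93 to 3.10). The Dickkopf gene XLOC_006543, of a family of secreted Wnt antagonists, had 6.97 and 5.61 CPM at 66 hpf, against 1.46 and 2.62 CPM at 52 hpf (3.14-fold, 2.05 to 4.98). As a mean of CPM per cell the fold was 1.57 for FoxQ2a, 1.78 for Frizzled and 1.49 for Dickkopf, below the call. Among the members that were not called, the fibroblast growth factor gene XLOC_032698 had a fold of 1.70, the T-box gene XLOC_034303 (TBX planulab) 1.79, the gene MSTRG.20613 with an Fz domain 1.01 and the DAN-domain gene XLOC_016427 0.850. A transforming growth factor beta family gene of the aboral list, XLOC_039643, was 7.13-fold higher (3.85 to 14.6), with 4.81 and 7.38 CPM at 66 hpf, against 0.879 and 0.820 CPM at 52 hpf. Of the Wnt ligand genes, which mark the oral pole in cnidarians, 1 of 6 evaluated was called higher. That gene, MSTRG.15745, had 1.98 and 2.17 CPM at 66 hpf, against 1.61 and 0.328 CPM at 52 hpf, for a fold of 2.06. It lost its call at 1.97 without 66 hpf library 2 and at 1.28 without 52 hpf library 2, and had 6.31 without 52 hpf library 1. The most abundant Wnt gene, XLOC_001931, had 29.4 and 31.7 CPM at 66 hpf, against 23.1 and 25.4 CPM at 52 hpf (1.26-fold).

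Neural genes gave mixed values. Of 7 neuropeptide precursor genes, which encode the proteins cut into signalling peptides, 1 was called. XLOC_012580, the precursor named IPYFAN, had 132 and 123 CPM at 66 hpf, against 26.5 and 65.3 CPM at 52 hpf (2.85-fold, or 1.96-fold without 52 hpf library 1 and 4.82-fold without 52 hpf library 2). As a mean of CPM per cell its fold was 1.77 and it was not called. The main GLWamide precursor XLOC_017096 had 374 and 347 CPM at 66 hpf, against 391 and 449 CPM at 52 hpf (0.863-fold), although both genes were highest in cluster 18. The HFRIamide precursor XLOC_034880 had 488 and 218 CPM at 66 hpf, against 444 and 1509 CPM at 52 hpf, so the ages overlapped and 52 hpf library 2 stood apart. The QYFamide precursor XLOC_041442 had 51.4 and 43.7 CPM at 66 hpf, against 92.9 and 52.8 CPM at 52 hpf (0.644-fold), and was not called. Receptor and channel genes were more often called higher than lower, as were all evaluated genes. Of G-protein-coupled receptor genes 8 of 35 were called higher and 0 lower, and of ion channel genes 5 of 34 higher and 0 lower. A fold above 1 was found in 33 of the 34 ion channels, beside 63.5% of all evaluated genes. Of all 5562 genes under 10 CPM at the higher age, 638 were called higher and 40 lower, with a median log2 fold of 0.27. As a mean of CPM per cell 4 of the 8 receptor genes and all 5 ion channel genes were still called. The receptor gene XLOC_037594, highest in cluster 18, had 7.45 and 7.09 CPM at 66 hpf, against 0.732 and 2.30 CPM at 52 hpf (4.94-fold, 3.06 to 8.44), and its fold was 3.17 without 52 hpf library 1 and 9.93 without 52 hpf library 2. Of the Nk2d cell markers 4 of 6 were called higher and 0 lower. Among these, the homeodomain gene XLOC_043740 had 4.34 and 2.66 CPM at 66 hpf, against 0.732 and 0.820 CPM at 52 hpf (4.54-fold, 2.33 to 9.87). As a mean of CPM per cell 1 of the 4 was still called, and XLOC_043740 had a fold of 1.84 and was not.

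Transcription factor genes included 6 called higher and 0 lower of 32 evaluated. Besides FoxQ2a and XLOC_043740 these were the T-box gene XLOC_016911 (3.31-fold), the Ets gene XLOC_001343 (2.70-fold) and the homeodomain genes XLOC_038055 and XLOC_013191 (2.46-fold each, the last 1.87-fold without 52 hpf library 2 and 3.82-fold without 52 hpf library 1). XLOC_016911, XLOC_001343 and XLOC_013191 were in the oral list and the other 3 in the aboral list. As a mean of CPM per cell 3 of the 6 were still called. Of the metalloprotease genes, which encode zinc enzymes that cut extracellular and membrane proteins, 4 of 14 were called higher and 0 lower. The ADAM gene XLOC_032802 had 11.3 CPM in both 66 hpf libraries, against 1.61 and 1.64 CPM at 52 hpf (6.96-fold, 4.45 to 11.5).

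Genes of dividing cells gave values in the other direction, without any single gene reaching the call. All 29 genes of DNA replication and the histones had folds below 1, with a summed level of 7057 and 6871 CPM at 66 hpf, against 9491 and 9773 CPM at 52 hpf (0.724-fold, 0.718 to 0.729). Of the 21 i-cell markers 20 had folds below 1, and the list summed to 17597 and 17311 CPM at 66 hpf, against 23844 and 24195 CPM at 52 hpf (0.727-fold). The technical replicates of an age were within a few percent of each other in both sums, and the ages did not overlap. The 2 lists had a median log2 fold of -0.41 each. They share the histone H2A gene XLOC_036708, the most abundant member of the replication list with 21.3% of its sum. The lists are therefore not separate results. Ribosomal protein genes summed to 368912 and 364061 CPM at 66 hpf, against 382922 and 389545 CPM at 52 hpf (0.949-fold), and 75 of 81 were below 1. The 12 evaluated chaperone genes were all below 1 as well, with a summed fold of 0.870. Among all evaluated genes 63.5% were above 1, but the median log2 fold of those at 100 CPM or more was -0.15. The 4 green fluorescent protein genes, which encode fluorescent pigments, summed to 865 and 1040 CPM at 66 hpf, against 1706 and 1263 CPM at 52 hpf (0.635-fold), and none of them was called. In these lists 0 genes were called higher and 0 lower.

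Lists of differentiated cells differed among themselves. The 10 evaluated PF1 genes, which encode secreted proteins of the neurosecretory cells, included 0 called genes and had a summed fold of 1.05, or 0.972 with TMM scaling, 1.58 without 52 hpf library 1 and 0.811 without 52 hpf library 2. The most abundant, XLOC_039101 (PF1_11), had 1413 and 1371 CPM at 66 hpf, within the range of 1755 and 891 CPM at 52 hpf. Of the 18 neurosecretory markers 2 were called higher and 0 lower. XLOC_042849 (BETAP_1) was one of them, with 2459 and 2372 CPM at 66 hpf, against 982 and 677 CPM at 52 hpf (2.88-fold), and the C-type lectin gene XLOC_010823 was the other (3.18-fold, 1.54 to 7.39, or 1.89-fold without 52 hpf library 2 and 13.5-fold without 52 hpf library 1). XLOC_013806, a carbohydrate esterase gene highest in the same cluster 11 but not on that list, had 4656 and 4576 CPM at 66 hpf, against 2134 and 1815 CPM at 52 hpf (2.33-fold). As a mean of CPM per cell the fold was 1.73 for XLOC_042849 and 1.31 for XLOC_013806. Contractile genes (0 called of 14, summed fold 0.882), axonemal and ciliary genes (0 called of 24, summed fold 1.18) and muscle-enriched epidermis markers (1 higher and 0 lower of 20, summed fold 1.01, or 0.937 with TMM scaling) were closer to equal. Of the contractile sum 54.5% lay in XLOC_037278, which is also on the i-cell marker list. The aboral epidermis markers were called higher in 9 of 20 cases and lower in 0, with a summed fold of 1.93. Among those 9 were XLOC_037406, XLOC_000115 and XLOC_041232, which were highest in clusters 23 and 21, and 0 of the 9 was called as a mean of CPM per cell. XLOC_006762 and MSTRG.17015 were also among the 9, although both were orally enriched in the bulk data. The sums of this list and of the orally enriched genes therefore share genes and are not separate results.

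**Figure D2:**
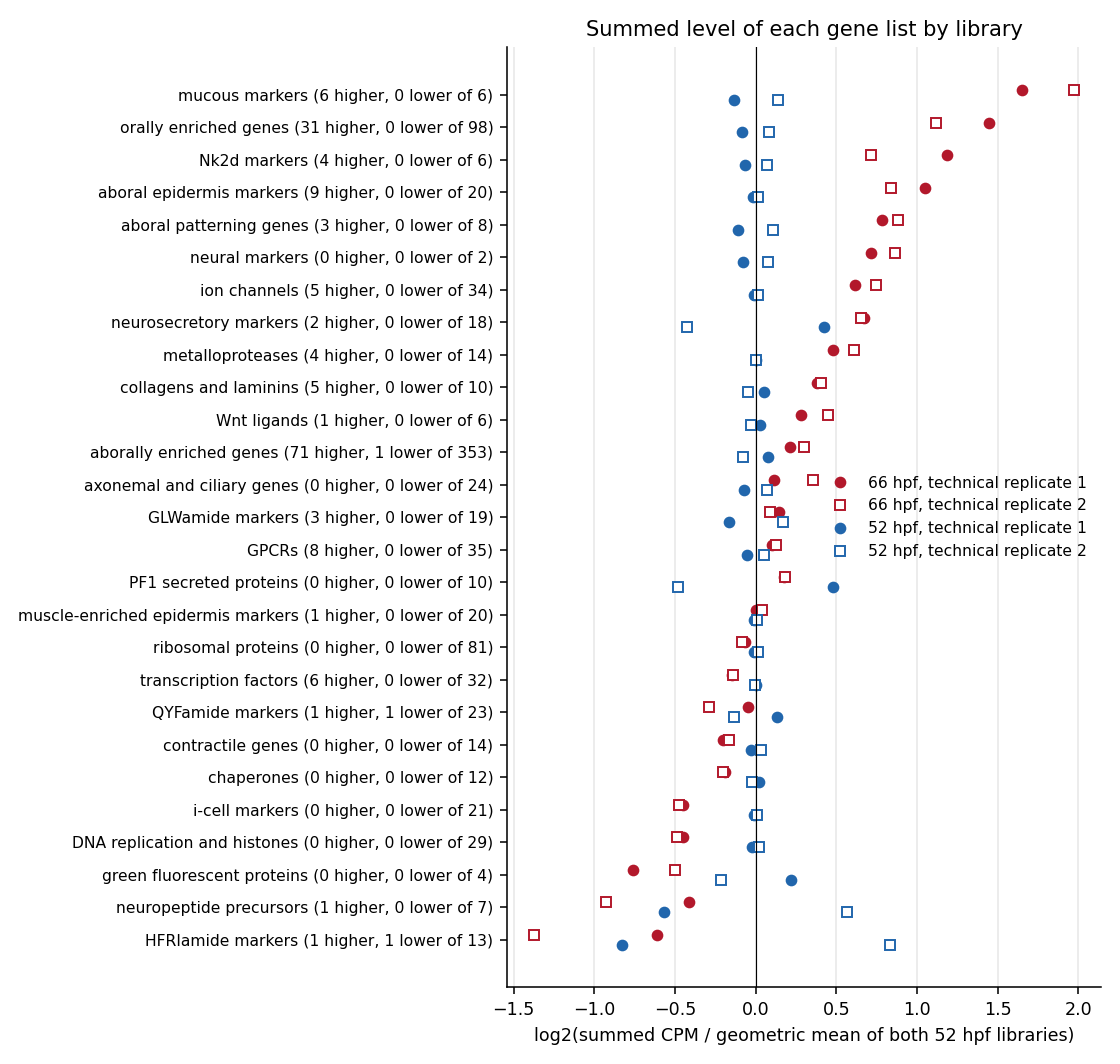
Summed level of each gene list in each library as log2 of its ratio to the geometric mean of both 52 hpf libraries (red, 66 hpf; blue, 52 hpf; filled circles, technical replicate 1; open squares, technical replicate 2), with the number of members called higher and lower of those evaluated beside each name. The mucous markers and the orally enriched genes lie farthest to the right, i-cell markers and DNA replication genes lie to the left of both 52 hpf libraries, and the HFRIamide, neuropeptide and PF1 lists overlap between ages.

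The genes called higher were unevenly spread over the cell clusters. Of the 955 genes 483 (50.6%) were highest in cluster 5, where 25.1% of all evaluated genes were highest, and 115 were highest in cluster 6, 72 in cluster 21 and 49 in cluster 23. In cluster 23 the called genes were 47.6% of the 103 genes highest there. No gene highest in cluster 3 or 9 was called higher. When the cells of cluster 5 were left out, 609 genes were called higher, and when those of clusters 5, 6, 10, 14, 21 and 23 were left out, 423 were. These exclusions were chosen after the data were seen.

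Cell make-up was read from a second clustering that omitted 1974 genes that differed between ages, in all cells or within a cluster, so that such genes did not define its clusters. It gave 24 clusters from 2546 variable genes, and was chosen after the data were seen. The omitted genes were taken from these same data. A gene can differ over all cells merely because the cells that express it are more frequent. Omitting it takes away a marker of those cells, which can then merge with others. The summed shift of cell shares between ages was 24.6% of cells, against 5.00% and 8.18% between the technical replicates of 66 hpf and of 52 hpf. In 8 clusters the share was higher at 66 hpf in both libraries than in either 52 hpf library, in 9 it was lower and in 7 the ages overlapped.

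The cluster holding cells of clusters 5 and 14 differed most, with 13.1% and 13.7% of cells at 66 hpf, against 2.27% and 1.77% at 52 hpf, a share ratio of 6.58 (5.00 to 8.82). It took in 95.1% of the cells of cluster 5, which is led by XLOC_003106, XLOC_013607, MSTRG.20255 and MSTRG.5921, and 92.1% of those of cluster 14, led by MSTRG.8876. No marker list named either cluster. In the first clustering, whose defining genes include some that differ between ages, cluster 5 itself had 9.19% and 9.21% of cells at 66 hpf, against 0.568% and 0.154% at 52 hpf, a ratio of 24.9 (13.4 to 52.3), and cluster 14 had a ratio of 5.47 (3.37 to 9.42). The ratio of the cluster matching cluster 5 was 22.1 to 30.1 in the 7 other clusterings tried that kept those genes or part of them. Cells of cluster 5 had few UMIs, with a median of 659 at 66 hpf and 763 at 52 hpf, and those of cluster 14 had a median mitochondrial share of 11.3% at 66 hpf and 8.18% at 52 hpf. The cluster holding clusters 6 and 10, led by XLOC_036949 and XLOC_030791, had 11.3% and 10.5% of cells at 66 hpf, against 5.04% and 5.47% at 52 hpf (ratio 2.08, 1.73 to 2.52). A cluster holding 58.0% of the neurosecretory-like cells and 50.9% of the cluster 21 cells had 3.49% and 3.99% at 66 hpf, against 2.06% and 2.39% at 52 hpf (ratio 1.69, 1.26 to 2.29). In it, cluster 21 cells and neurosecretory-like cells could not be separated once the differing genes were gone. A further cluster, made of neurosecretory-like cells alone, overlapped between ages, with 1.19% and 0.988% at 66 hpf and 1.28% and 0.770% at 52 hpf (ratio 1.05, 0.658 to 1.71). In the first clustering the ratio was 1.29 (0.980 to 1.70) for cluster 11 and 8.62 (3.83 to 24.02) for cluster 21.

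Neural cells were few. GLWamide-like cells (cluster 18, all 20 markers raised) were 2.11% and 1.48% of cells at 66 hpf, against 0.639% and 1.39% at 52 hpf (ratio 1.79, 1.16 to 2.85). The gap between the closest libraries was small beside the gap within an age. HFRIamide-like and Nk2d-like cells (clusters 24 and 17) shared a cluster with 3.26% and 2.36% at 66 hpf, against 1.77% and 2.16% at 52 hpf (ratio 1.43, 1.04 to 1.99). In the first clustering, where they were apart, HFRIamide-like cells were 0.804% and 0.670% at 66 hpf, against 0.710% and 1.15% at 52 hpf (ratio 0.796, 0.471 to 1.37), and Nk2d-like cells 2.22% and 1.52% at 66 hpf, against 0.994% and 1.00% at 52 hpf (ratio 1.86, 1.21 to 2.96). QYFamide-like cells (cluster 19) overlapped between ages, with 1.46% and 1.52% at 66 hpf and 1.49% and 1.31% at 52 hpf. The cluster 23 cells were 1.42% and 0.988% at 66 hpf, against 0.781% and 0.847% at 52 hpf, and their ratio of 1.47 had an interval of 0.894 to 2.50 that included 1. Their share of UMIs was 5.13% at 66 hpf and 1.58% at 52 hpf.

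Epidermis-related cells and the RNA-rich cells of clusters 3, 4 and 7 took lower shares at 66 hpf. The cluster holding cluster 9 and many cells of cluster 0, in which members of both epidermis marker lists were raised, was 10.0% and 8.61% of cells at 66 hpf, against 16.9% and 13.9% at 52 hpf (ratio 0.601, 0.527 to 0.686). Cells of clusters 1 and 20, with the highest levels of the green fluorescent protein genes, were 7.16% and 7.09% at 66 hpf, against 11.1% and 10.4% at 52 hpf (ratio 0.661). Cluster 16, led by MSTRG.24972, had the lowest ratio, with 1.69% and 1.55% at 66 hpf, against 3.83% and 3.23% at 52 hpf (ratio 0.456, 0.337 to 0.615). Clusters 3, 4 and 7 had median UMI counts of 7149 to 12331 per cell at 66 hpf and 8191.5 to 13058.5 at 52 hpf and the highest sums of i-cell markers, but did not reach the level set for an i-cell-like name. The cluster holding cluster 7 was 7.09% of cells in both 66 hpf libraries, against 10.5% and 11.1% at 52 hpf (ratio 0.657, 0.563 to 0.768), and took 23.7% of all UMIs at 66 hpf and 33.8% at 52 hpf. The cluster holding cluster 3 was 6.28% and 5.93% at 66 hpf, against 9.87% and 8.47% at 52 hpf (ratio 0.663).

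**Figure D3:**
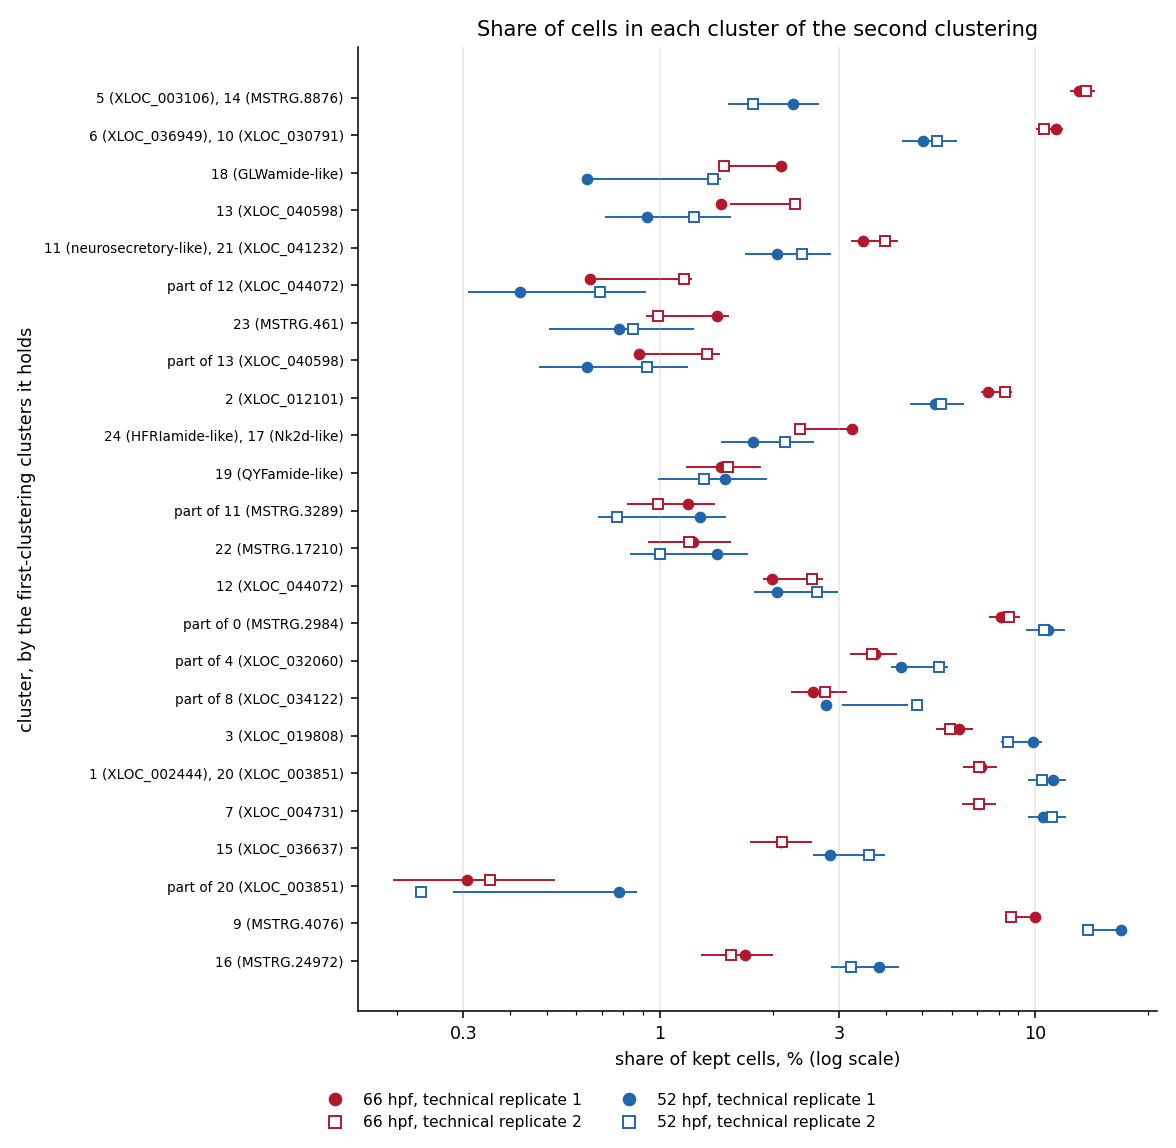
Share of kept cells in each cluster of the second clustering, in percent on a log axis, with 1 point per library (red, 66 hpf; blue, 52 hpf; filled circles, technical replicate 1; open squares, technical replicate 2) and bars for the exact binomial interval of the pooled age. Labels give the clusters of the first clustering that each holds and their leading gene or marker-based name; the cluster holding 5 and 14 shows the widest gap, with 13.1% and 13.7% at 66 hpf against 2.27% and 1.77% at 52 hpf.

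The fold of each gene was split into a make-up fold, from the shares of UMIs that clusters took at each age, and a within-cluster fold, from levels inside clusters. For the 56 abundant genes called higher the median make-up fold was 2.71 and the median within-cluster fold 1.14, and the make-up fold was the larger for 45 of them. With the second clustering the medians were 2.33 and 1.46, and the make-up fold was the larger for 34. The genes of cluster 23 gave like values under both clusterings. XLOC_006762 had a make-up fold of 3.10 and a within-cluster fold of 1.22, and its level inside cluster 23 was 137099 CPM at 66 hpf and 113303 CPM at 52 hpf. The make-up fold rises with UMIs per cell as well as with the number of cells. In the first clustering cluster 23 held 61 cells at 66 hpf and 16 at 52 hpf. Its share ratio was 1.90 for cells (1.08 to 3.52) and 3.28 for UMIs. The genes of cluster 21 did not give like values under both clusterings. XLOC_005440 had a make-up fold of 4.57 in the first clustering, where cluster 21 held 104 cells at 66 hpf and 6 at 52 hpf, while in the second its within-cluster fold was the larger of the parts. The second clustering omitted the called genes and did not keep cluster 21 apart, so its split cannot decide between the parts for these genes. For all 955 genes called higher the order of the medians turned as well, with a make-up fold of 1.94 and a within-cluster fold of 1.41 in the first clustering, against 1.58 and 1.75 in the second. For the 63 genes called lower the within-cluster fold was 0.44 in the median under both clusterings, with a make-up fold of 0.930 and 0.935.

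**Figure D4:**
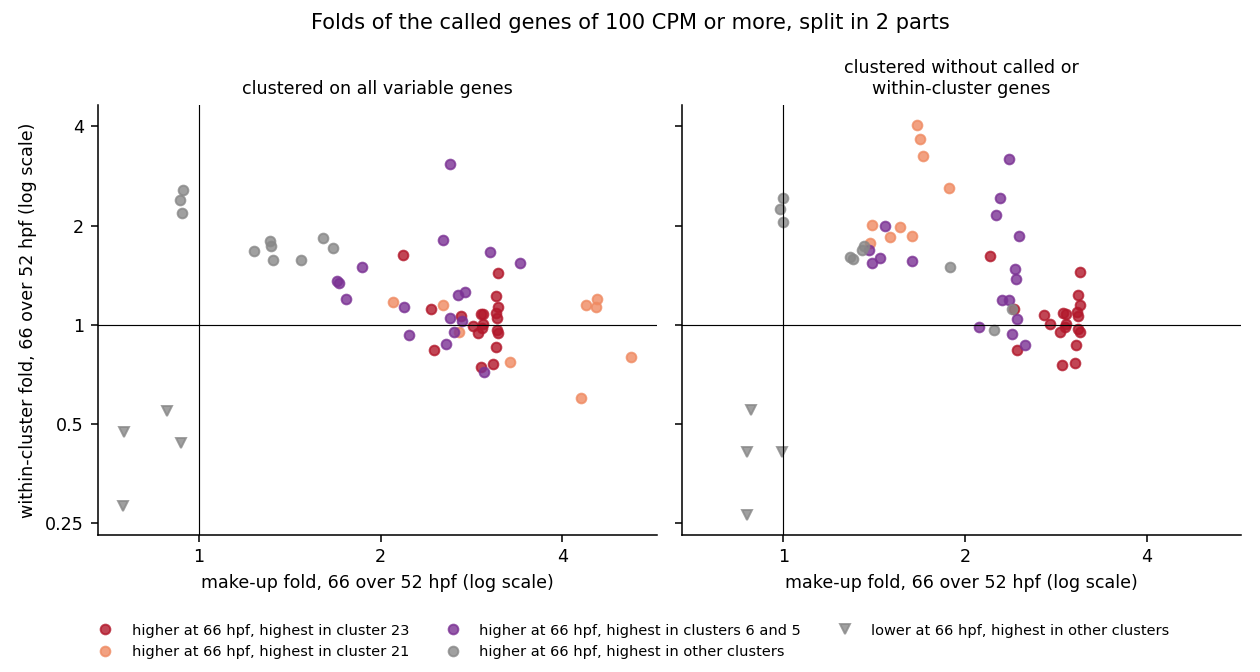
Make-up fold (horizontal, log axis) against within-cluster fold (vertical, log axis) of the called genes of 100 CPM or more, with 1 point per gene, for the first clustering on the left and the second on the right. Colours mark the cluster in which a gene is highest; the genes of cluster 23 keep their place near a make-up fold of 3, while those of cluster 21 move from high make-up folds on the left to high within-cluster folds on the right.

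Differences inside clusters were read in the 16 clusters with at least 50 cells at each age. They were most frequent in clusters 11 and 12. In cluster 11, the neurosecretory-like cells, 160 of 1281 genes (12.5%) were higher and 9 (0.703%) lower at 66 hpf, and in cluster 12, led by XLOC_044072, 181 of 1755 (10.3%) were higher and 72 (4.1%) lower. In the other 14 clusters 0.336% to 5.29% of genes were higher and 0.269% to 6.01% lower. In all, 733 genes were higher and 435 lower in at least 1 cluster.

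In cluster 12 most i-cell markers were lower at 66 hpf. The neural markers ELAV-2 and synaptotagmin and 3 of 6 Nk2d markers were raised in it, but 0 of them were among its leading genes and no list reached the level set for a name. With only 2 members the neural list could not name any cluster, since the rule required at least 3 detected markers. Of the i-cell markers 17 of 21 were lower and 0 higher in cluster 12. They summed to 7735 and 4369 CPM at 66 hpf, against 15268 and 16793 CPM at 52 hpf (0.37-fold on the pooled sums). Of the DNA replication genes 8 of 29 were lower and 0 higher, with sums of 2752 and 2291 CPM at 66 hpf, against 5728 and 6284 CPM at 52 hpf. The histone H2A gene XLOC_036708, which is on both lists, had 353 and 236 CPM at 66 hpf, against 1186 and 1347 CPM at 52 hpf. The HMG-box gene XLOC_034527 had 879 and 514 CPM at 66 hpf, against 2216 and 1921 CPM at 52 hpf. Conversely XLOC_030971 (ELAV-2), an RNA-binding protein of differentiating neurons, had 1168 and 2397 CPM at 66 hpf, against 812 and 602 CPM at 52 hpf (2.60-fold). XLOC_014597 (FoxQ2a) had 520 and 632 CPM at 66 hpf, against 310 and 149 CPM at 52 hpf. Among the other lists, 4 of 45 G-protein-coupled receptor genes, 3 of 41 ion channel genes and 3 of 24 axonemal genes were higher and 0 lower. These counts are over whole lists, while the 10.3% is over the 1755 genes with enough UMIs in the cluster. The shares can therefore not be compared. Cells of this cluster had a median of 1587 UMIs at 66 hpf and 2325 at 52 hpf, and the part of this difference was not tested.

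Cluster 15, led by XLOC_036637, and cluster 16 also had i-cell markers that were lower. In cluster 15, where 4.1% of genes were higher and 3.46% lower, 11 of 21 i-cell markers were lower and 0 higher, with sums of 6512 and 5031 CPM at 66 hpf, against 7911 and 16140 CPM at 52 hpf. The 52 hpf libraries differed from each other by more than the lower of them differed from 66 hpf. In cluster 16, where 3.17% of genes were higher and 6.01% lower, 4 of 21 were lower and 0 higher, with sums of 4127 and 3109 CPM at 66 hpf, against 6742 and 6325 CPM at 52 hpf. In clusters 3, 4 and 7, where the i-cell markers were highest, their summed folds were 0.88 to 0.90 and those of the DNA replication genes 0.85 to 0.88. Cluster 16 also had its own leading genes at different levels. MSTRG.24972 had 36600.5 and 39753 CPM at 66 hpf, against 17939 and 9616 CPM at 52 hpf, while XLOC_016334 had 5276 and 5084 CPM at 66 hpf, against 15853 and 11364 CPM at 52 hpf.

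**Figure D5:**
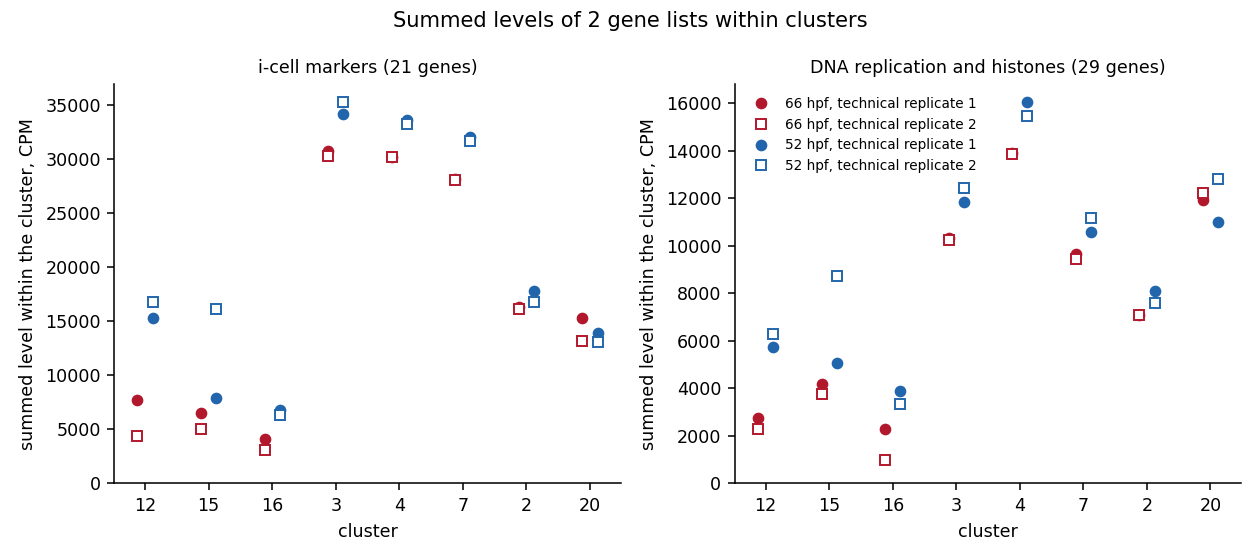
Summed level, in CPM within the cluster, of the 21 i-cell markers (left) and of the 29 DNA replication and histone genes (right) in 8 clusters of the first clustering, with 1 point per library (red, 66 hpf; blue, 52 hpf; filled circles, technical replicate 1; open squares, technical replicate 2). In clusters 12 and 16 both 66 hpf libraries lie well below both 52 hpf libraries, in clusters 3, 4 and 7 the gap is small beside the level, and in cluster 20 the ages overlap. The gene XLOC_036708 is on both lists.

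In the neurosecretory-like cluster 11 the PF1 genes summed to 78079 and 76630 CPM at 66 hpf, against 147571 and 91851 CPM at 52 hpf (0.62-fold), while XLOC_042849 (BETAP_1) was at 52444 CPM at 66 hpf and 32684 CPM at 52 hpf. PF1_11 (XLOC_039101), the most abundant of them, was at 38897 CPM at 66 hpf and 62776 CPM at 52 hpf there. Of the chaperone genes 4 of 13 were higher in this cluster and 0 lower, and of the ribosomal protein genes 6 of 81 were higher. These counts are over whole lists, while 12.5% of the genes evaluated in the cluster were higher. The aboral patterning genes summed to 1123 and 988 CPM at 66 hpf, against 632 and 654 CPM at 52 hpf (1.65-fold). Some genes highest in cluster 21 were higher here too. XLOC_000115 had 3863 and 3901 CPM at 66 hpf, against 353 and 1039 CPM at 52 hpf, and XLOC_005440 had 2264 and 1644 CPM at 66 hpf, against 173 and 269 CPM at 52 hpf. XLOC_006386, with an insulin-like growth factor binding domain, had 473 and 296 CPM at 66 hpf, against 586 and 3849 CPM at 52 hpf, and rested on 52 hpf library 2.

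Cluster 8 was called muscle-enriched epidermis-like because 14 of 20 markers of that list were raised in it, although 0 of them were among its 10 leading genes. The trait was not particular to it, since 16 of these markers were raised in cluster 9, 13 in cluster 0 and 10 in cluster 1. Cluster 8 also had 6 of 20 aboral epidermis markers raised. In it, 40 of 1740 genes (2.3%) were higher and 46 (2.64%) lower at 66 hpf. Of those lower, the copper/zinc superoxide dismutase gene MSTRG.23029 had 439 and 1012 CPM at 66 hpf, against 1652 and 1999 CPM at 52 hpf, and the glutathione S-transferase gene MSTRG.6954 had 407 and 547 CPM at 66 hpf, against 1249.6 and 1264 CPM at 52 hpf. The green fluorescent protein gene XLOC_010544 had 1489 and 1912 CPM at 66 hpf, against 3676 and 3314 CPM at 52 hpf. Over all cells this gene had 499 and 578 CPM at 66 hpf, against 967 and 734 CPM at 52 hpf (0.627-fold), and was not called. Among the genes higher in cluster 8 was XLOC_038644 of the oral list, with 277 and 233 CPM at 66 hpf, against 43.6 and 17.1 CPM at 52 hpf. These genes were chosen by their level after the values of the cluster were seen.

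A small number of genes were higher in many clusters at once. Of these, 12 genes were higher in at least 5 clusters and 0 were lower in as many. XLOC_042849 was higher in 8 clusters and XLOC_013806 in 7, both of them genes highest in cluster 11. Outside that cluster their UMIs came from few cells. In cluster 15, 3 cells held 91.3% of the XLOC_042849 UMIs at 66 hpf, and in clusters 12 and 13 the top 3 held 94.3% and 92.6%, against 7.42% in cluster 11. In cluster 2, led by XLOC_012101, where 2.91% of genes were higher and 0.269% lower, 24 aborally enriched genes were higher and 0 lower, and the list summed to 6156 and 4607 CPM at 66 hpf, against 2180 and 2135 CPM at 52 hpf. There too, 3 cells held 78.2% of the XLOC_042849 UMIs and 62.9% of the XLOC_013806 UMIs at 66 hpf. Doublets were not removed, and their part in these values was not tested.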

How the data were processed

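Libraries were made with droplet-based 3′ single-cell chemistry from dissociated, fixed and cryopreserved planulae, 2 technical replicate libraries per age. The deposited matrices hold UMI counts per gene model and barcode, made by the authors with STARsolo (version not given in the sources used here), with cell calling by EmptyDrops and a cutoff of 300 UMIs. Counts were used as deposited. Barcodes with 300 to 75000 UMIs, 200 to 5000 genes and at most 20% mitochondrial UMIs were kept. For 18761 features, counts were summed per library and given as CPM, and 12097 genes with at least 50 UMIs were evaluated. A call required a pooled CPM ratio of at least 2 in either direction and libraries of the ages that did not overlap. No test was made, since each age was 1 biological sample. Ratios have exact conditional binomial intervals and shares exact (Clopper-Pearson) binomial intervals at 95%, both of counting error only. UMIs of 1 library share its cells, so these intervals are narrower than the spread between dissociations.

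Cells were clustered with scanpy 1.11.5 (22 principal components, 50 neighbours, Leiden resolution 1) on log-normalized counts, without integration across libraries. A cluster was given a marker-based name when at least 3 markers of a list were detected, more than 50% of the list was at least 4-fold above other cells and no other list had more markers among its 10 leading genes. Scrublet marked 10 of 8154 cells (0.1226%), too few to have worked, so doublets were not removed. Genes named in the text were the called genes of 100 CPM or more with the largest folds or differences, called members of gene lists, all members of 5 small lists, and leading genes of clusters; genes named within a cluster were chosen after their values were seen. Members and lists were chosen with earlier results of these data known. Scaling by TMM (edgeR 4.0.16) and by DESeq2 1.42.0 size factors, other minima, equal weight per cell, other clusterings and leaving out each library were the alternatives. Other Clytia planula libraries of the series, named after the fixatives ACME (also used for the libraries compared here) and methanol, carry no age in the labels and entered no comparison.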

Additional observations from a re-analysis of the deposited data

How the results depend on the processing

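The direction of the whole comparison was the same under every setting, with more genes higher than lower, while the counts depended on it. The number of genes called higher was 2271 with a minimum of 1 UMI, 1454 with 20, 393 with 200, 1896 as a mean of CPM per cell, 2276 at 1.5-fold, 609 without cluster 5 and 423 without clusters 5, 6, 10, 14, 21 and 23. It ranged from 849 to 1227 when 1 library was left out. The number called lower was 403, 138 and 25 with those minima, 206 as a mean per cell, 259 at 1.5-fold, 95 with TMM, 112 with DESeq2 size factors and 234 without clusters 3, 4 and 7. It was 106 without 66 hpf library 1, 102 without 66 hpf library 2, 83 without 52 hpf library 1 and 116 without 52 hpf library 2. TMM gave 766 and DESeq2 717 genes higher, all of them among the 955, and moved the median log2 fold of all genes from 0.15 to 0.04 and to -0.00. Exclusions of clusters and of the top cell were chosen after the data were seen. Of 126 called genes that may be named, 112 were still called with TMM, 121 with all deposited barcodes, 122 without the top cell, 107 to 118 without 1 library and 54 as a mean per cell. The last setting reversed 8 folds, to 0.951 for XLOC_008965, 0.779 for XLOC_034765, 0.989 for XLOC_040211, 0.725 for XLOC_004024, 0.833 for MSTRG.14787, 0.850 for XLOC_018987, 0.958 for XLOC_004968 and 0.950 for MSTRG.6587. Without their most abundant member, the summed fold was 1.04 for contractile genes, 2.75 for collagens and laminins and 1.07 for transcription factors. The shift of cell shares was 24.6% to 27.5% of cells under the other clusterings and 52.2% with principal components centred per library. The median number of genes per cell was 13.5 lower at 66 hpf, and with all deposited barcodes 44.5 higher. The cause of these changes was not tested. No paired analysis was possible because each age has 1 dissociation, its library numbers name technical captures, and the results come from no test. Depth limits the weakly expressed genes, since 3 UMIs were worth about 0.3 CPM in the 66 hpf libraries and 0.439 and 0.492 CPM in the 52 hpf libraries. Levels near these values, such as those of MSTRG.15745 and XLOC_042365 at 52 hpf, rest on few UMIs.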

Other observations

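Single genes of transport and cell contact were also called, members of the gene lists among them. XLOC_030751, named BGT-1/SLC6A12 and belonging to a family of sodium-driven importers of small amino acids and related compounds, had 3.77 and 4.82 CPM at 66 hpf, against 1.90 and 1.15 CPM at 52 hpf (2.77-fold, 1.69 to 4.75), and was highest in the HFRIamide-like cluster 24. The innexin gene XLOC_039168, of the family that forms gap junctions in cnidarians, had 41.4 and 36.2 CPM at 66 hpf, against 21.97 and 14.3 CPM at 52 hpf (2.12-fold), and was not called with TMM, without 66 hpf library 1 (1.98) or without 52 hpf library 2 (1.77). XLOC_032509, with a tubulin domain, had 52.7 and 48.8 CPM at 66 hpf, against 17.3 and 18.7 CPM at 52 hpf (2.83-fold). As a mean of CPM per cell the fold was 1.06 for XLOC_032509 and 1.83 for XLOC_039168, and neither was called. XLOC_029942 (SLURP_14), a QYFamide marker, was one of the few genes called lower, with 1.60 and 1.38 CPM at 66 hpf, against 4.25 and 1.97 CPM at 52 hpf (0.470-fold, 0.285 to 0.769), and lost its call without the top cell of each library (0.542), without 52 hpf library 1 (0.758), without 66 hpf library 2 (0.505) and as a mean of CPM per cell.

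Further planula preparations, whose labels name the fixative (ACME, also used for the 66 and 52 hpf libraries, or methanol) and give no age, entered no comparison. In the pooled ACME preparation and in the methanol preparation the mucous markers summed to 2811 and 2256 CPM, the orally enriched genes to 17848 and 9145 CPM, the i-cell markers to 16389 and 9602 CPM and the DNA replication genes to 6386 and 4306 CPM. The green fluorescent protein genes summed to 2697 CPM in the ACME and 4534 CPM in the methanol preparation, and the muscle-enriched epidermis markers to 4601 and 7950 CPM.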
